A study of Homo sapiens with 12 samples.

Results

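The genes described here are 9 regulators of the G1 phase of the cell cycle: the CDK inhibitors CDKN1A, CDKN1B, CDKN1C, CDKN2C and CDKN2D, the D-type cyclins CCND1 and CCND3, and their kinases CDK4 and CDK6. They were taken by symbol from the count tables, and all 9 of 9 were found among the 16384 genes listed. All 9 also passed the filter on low counts, which kept 12645 genes for testing.

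The cells were MDA-MB-231, an established line from a triple-negative breast cancer, labelled wild type in every group. There were 12 libraries, 3 in each of 4 groups. The Combination group received 10 µmol/L of CAR, which the series title names as cardamonin, a plant chalcone, together with 25 µmol/L of JQ1, an inhibitor of the BET bromodomain proteins. The single-drug groups had the same doses, JQ1 at 25 µmol/L or CAR at 10 µmol/L, and DMSO, the vehicle, was the control. The time of treatment is not given in the sources used here. The labels do not say whether the replicates are separate cultures. The p-values therefore rest on the spread between these libraries alone, and that spread may be technical. All groups share 1 cell line.

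In G1, D-type cyclins bind CDK4 or CDK6, and the active kinases phosphorylate the retinoblastoma protein, which releases E2F factors that switch on S phase genes. The INK4 inhibitors, here p18 (CDKN2C) and p19 (CDKN2D), bind CDK4 and CDK6 alone and keep the cyclin out. The CIP/KIP inhibitors, p21 (CDKN1A), p27 (CDKN1B) and p57 (CDKN1C), bind cyclin and kinase together and block CDK2 complexes most strongly. MDA-MB-231 is known to have lost the INK4 genes CDKN2A and CDKN2B. In these libraries CDKN2B had 1 count in 1 of the 12 libraries and 0 in the others. CDKN2A was not analysed here.

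Total counts ran from 17449715 to 19754456 per library, so 3 counts, taken as the floor, came to 0.152 to 0.172 CPM. Levels of single genes below are CPM, counts scaled to a common library total after adjustment by the TMM factor. The floor and the summed markers are CPM of the plain library total, without that factor. As a check of the line, vimentin (VIM) had 8938 to 44989 counts per library, fewest in Combination. The oestrogen receptor (ESR1) had at most 9 counts and the progesterone receptor (PGR) at most 13. Of the other luminal breast markers, FOXA1 reached at most 2 counts and CDH1 at most 13. Others were present, GATA3 at 21 to 157 counts, EPCAM at 43 to 337, KRT18 at 3512 to 9288 and KRT8 at 7408 to 15117. Luminal and hormone receptor markers summed to 603 to 1309 CPM. DMSO replicate 3 stood apart, with a chi-square per degree of freedom of 10.6 and 12.6 against the other DMSO libraries; the remaining within-group pairs lay at 1.46 to 2.31. Its deviation depended on the length of the merged exons of a gene (Spearman's rho -0.638 over 6051 genes; DMSO replicates 1 and 2 gave 0.561 and 0.540, and the 9 libraries with a drug -0.202 to 0.233). Each deviation was measured against the average of the remaining replicates, so those of the 3 DMSO libraries depend on each other. Combination replicate 1 held 1429 counts of the liver gene ALB, against 4 to 10 in the other 11 libraries, and its 11 hepatocyte markers summed to 131 CPM. Of the leukocyte markers PTPRC reached at most 1 count, LYZ at most 3 and CD14 at most 14, and CD68 had 1542 to 4106. Of the endothelial markers CDH5 reached at most 2 counts, VWF at most 7 and PECAM1 at most 16. Of the fibroblast markers LUM reached at most 2 counts, DCN at most 3 and COL1A2 at most 20. COL1A1 had 41 to 156 counts and PDGFRB 257 to 1800. Summed markers ran from 88.9 to 208 CPM for leukocytes, almost all of it CD68, and from 19.1 to 98.8 CPM for fibroblasts, mostly PDGFRB. Endothelial markers summed to 0.273 to 1.21 CPM. In bulk RNA, fewer cells of a kind and less RNA per cell cannot be told apart.

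Promoter stretches of CDK4 and CDKN1A are shown first. CDKN1A had the largest change of the members in Combination against DMSO, CDK4 moved in opposite directions with the single drugs, and both starts carry repeated copies of a short motif. RefSeq windows of 250 bases before a start (GRCh38.p14) matched 7 of the 9 genes, with 12 windows in all (not CDKN1C and CCND1). The E-box CACGTG, the letters bound by MYC and related factors, was found in 3 of the 12 windows on either strand, against 6.34% of 35116 windows of all genes. These 3 windows belong to CDK4 and CDKN2C only, since CDKN2C has more than 1 window. The CDK4 window held 3 copies, and 0.0797% of all windows held at least 3. The GC box GGGCGG, the letters bound by SP1, was found in 9 of the 12 windows, against 42.6% of all. The CDKN1A window held 4 copies, 2 of them overlapping, and 7.63% of all windows held at least 4. Repeated GC boxes were not particular to CDKN1A. A window of CDKN2C and a window of CCND3 held 5 each, and the CDK4 window and a window of CDK6 held 3 each. The remaining member windows held 0 to 2. The stretches that hold the E-boxes of CDK4 and the GC boxes of CDKN1A follow, 5′ to 3′ on the strand of the gene, with these motifs in capitals. A match describes the letters only. Exons annotated in GENCODE v29 cover 211 bases of the CDK4 window and 152 of the CDKN1A window. Both windows lie inside the GENCODE v29 spans of these genes given below, so each start meant here is a RefSeq start within the span.
CDK4, 218 to 189 bases before the start (chr12:57752499-57752528, minus strand): gtCACGTGtgatagcaacagatCACGTGgc
CDK4, 113 to 84 bases before the start (chr12:57752394-57752423, minus strand): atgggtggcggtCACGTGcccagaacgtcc
CDKN1A, 111 to 82 bases before the start (chr6:36678603-36678632, plus strand): ccggggaGGGCGGtcccGGGCGGcgcggtg
CDKN1A, 54 to 25 bases before the start (chr6:36678660-36678689, plus strand): ggcgggcccGGGCGGGGCGGttgtatatca

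The mRNA of the inhibitor p21 was several-fold higher in both groups that received JQ1. CDKN1A (chromosome 6, 36676460 to 36687339, plus strand) stood at 209.6, 221 and 214 CPM in the Combination libraries, at 166, 166 and 169 in JQ1, at 51.8, 50.5 and 49.1 in CAR, and at 54.2, 57.0 and 56.5 in DMSO. No group overlapped another, and the order of the means was Combination, JQ1, DMSO, CAR. Against DMSO, CDKN1A rose 3.85-fold in Combination (log2 1.94 ± 0.04 SE, adjusted p = 7.47e-21; all adjusted p-values of fold changes are edgeR quasi-likelihood values, Benjamini-Hochberg adjusted over every gene tested). It rose 2.99-fold in JQ1 (log2 1.58 ± 0.04) and fell 1.11-fold in CAR (log2 -0.15 ± 0.04, adjusted p = 0.00679). Of all genes tested, 13% changed by more than CDKN1A in Combination against DMSO, and 15.7% did so in JQ1 against DMSO.

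CDKN1B encodes p27, which restrains CDK2 in resting cells. The gene (chromosome 12, 12715058 to 12722371, plus strand) stood at 52.2, 51.8 and 49.3 CPM in Combination, 83.8, 84.6 and 83.4 in JQ1, 34.0, 30.1 and 32.2 in CAR and 43.4, 45.3 and 46.7 in DMSO. No group overlapped another, with JQ1 highest and CAR lowest. CDKN1B rose 1.86-fold in JQ1 against DMSO (log2 0.90 ± 0.05) and fell 1.41-fold in CAR (log2 -0.49 ± 0.05). In Combination it was called slightly higher than in DMSO (1.13-fold, log2 0.18 ± 0.05, adjusted p = 0.00272). That call depended on the scaling: it was lost by total counts (log2 -0.028, adjusted p = 0.619) and by upper quartiles (log2 0.11, adjusted p = 0.0602), and held with DESeq2's size factors (log2 0.17, adjusted p = 0.0036).

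CDKN1C encodes p57, the product of an imprinted gene. At 5.57 ± 0.57 CPM in Combination, 3.70 ± 0.05 in JQ1, 3.69 ± 0.59 in CAR and 5.70 ± 0.51 in DMSO (SD, n = 3 each) it was the member with the fewest counts, 63 to 125 per library. The gene lies on chromosome 11, 2883213 to 2885773, minus strand. Its libraries read 6.20, 5.41 and 5.09 CPM in Combination, 3.68, 3.76 and 3.67 in JQ1, 3.31, 3.39 and 4.37 in CAR, and 5.13, 5.85 and 6.11 in DMSO. The groups formed a high pair, Combination and DMSO, and a low pair, JQ1 and CAR, with overlap inside each pair and none between them. Each drug alone lowered CDKN1C by a like amount, 1.54-fold in JQ1 (log2 -0.62 ± 0.13, adjusted p = 0.000205) and 1.54-fold in CAR (log2 -0.63 ± 0.13, adjusted p = 0.000347). In Combination the change against DMSO was log2 -0.033, with a 95% interval of -0.29 to 0.23 (adjusted p = 0.811). The highest Combination value came from replicate 1, the library with hepatocyte transcripts. Without that library CDKN1C in Combination was still higher than in JQ1 (log2 0.50, adjusted p = 0.0096, against 0.59 with it) and than in CAR (0.51, adjusted p = 0.00372, against 0.59 with it).

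The INK4 inhibitors moved apart. CDKN2C, which encodes p18 (chromosome 1, 50960745 to 50974633, plus strand), stood at 35.9, 33.3 and 35.5 CPM in Combination, 55.3, 51.6 and 49.8 in JQ1, 47.3, 46.1 and 46.4 in CAR and 78.2, 75.8 and 81.0 in DMSO. All 3 drug groups lay below DMSO without overlap. It fell 2.25-fold in Combination (log2 -1.17 ± 0.05), by 0.58 ± 0.05 on the log2 scale in JQ1, and 1.68-fold in CAR (log2 -0.75 ± 0.05) against DMSO. CDKN2D, which encodes p19 (chromosome 19, 10566462 to 10569059, minus strand), stood at 31.2, 29.2 and 29.9 CPM in Combination, 25.7, 26.6 and 27.9 in JQ1, 12.6, 13.4 and 11.6 in CAR and 19.0, 17.0 and 18.0 in DMSO. No group overlapped another. It rose 1.67-fold in Combination (log2 0.74 ± 0.07) and 1.48-fold in JQ1 (log2 0.56 ± 0.07), and fell 1.44-fold in CAR (log2 -0.53 ± 0.07).

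In CAR against DMSO all 5 inhibitors fell, by 1.11-fold to 1.68-fold, where 30.1% of all genes fell. The calls for the inhibitors in JQ1 against DMSO were 3 higher (CDKN1A, CDKN1B and CDKN2D) and 2 lower (CDKN1C and CDKN2C), where 41.5% of all genes rose and 42.2% fell.

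**Figure D1:**
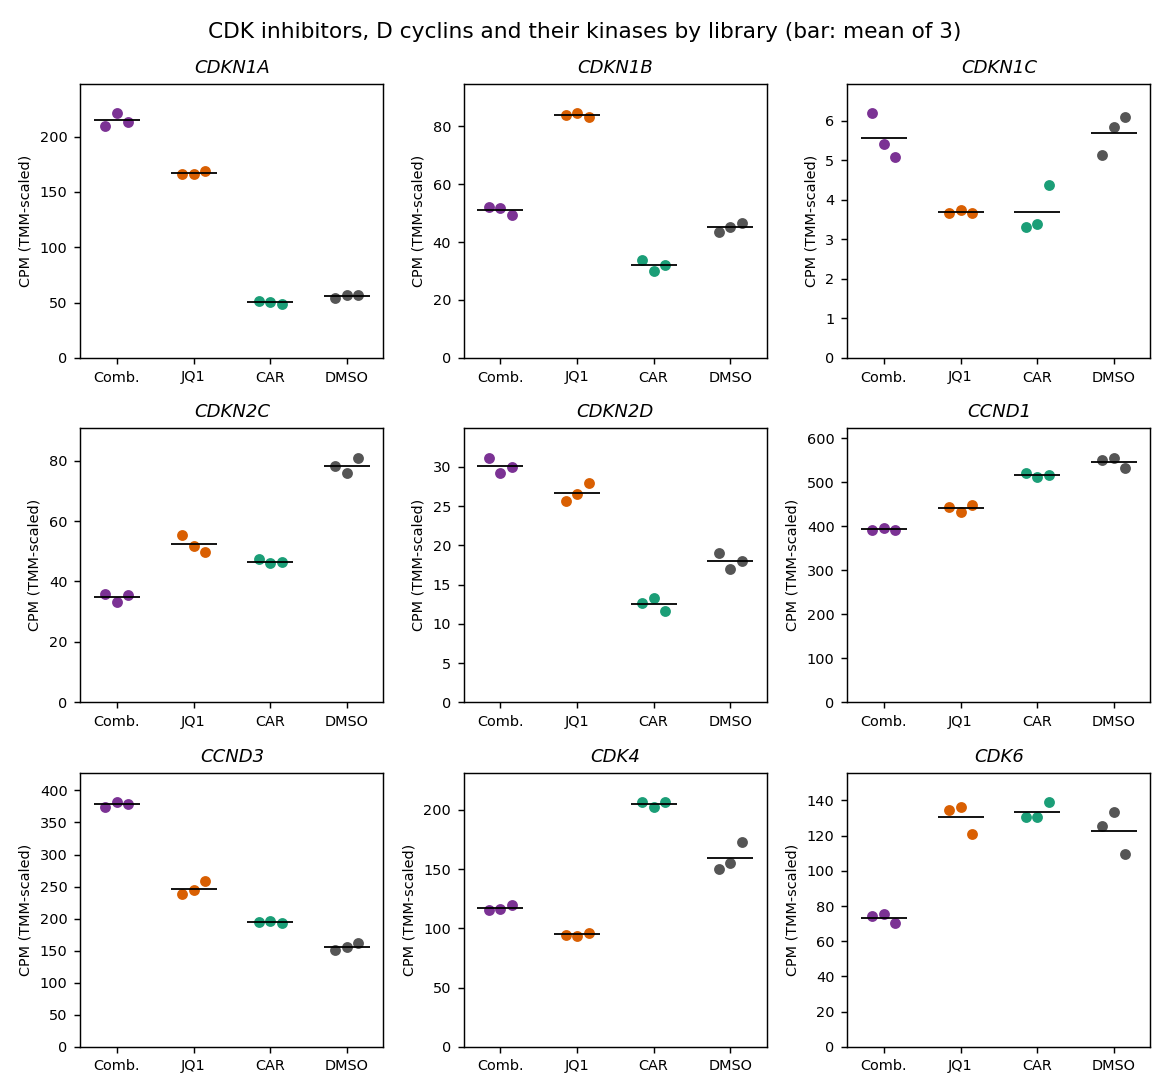
Level of each of the 9 genes in every library, as CPM on TMM-scaled library sizes (linear axis from 0). Points are libraries and the bar is the mean of 3; CDKN1A is highest in Combination, CCND3 is highest in Combination and lowest in DMSO, and the 3 CDK6 values of Combination lie below all others.

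The D cyclins also moved in opposite directions. CCND1, the cyclin most often amplified in breast cancer (chromosome 11, 69641087 to 69654474, plus strand), stood at 393, 397 and 392 CPM in Combination, 444, 432 and 449.5 in JQ1, 520.4, 513 and 517 in CAR and 550.2, 556 and 533 in DMSO. The ranges did not overlap, with Combination lowest, then JQ1, then CAR, and DMSO highest. CCND1 fell 1.39-fold in Combination (log2 -0.47 ± 0.03) and 1.24-fold in JQ1 (log2 -0.31 ± 0.03). In CAR the value was log2 -0.08 ± 0.03 (adjusted p = 0.0392), a call lost in 13 of 19 alternatives, where the adjusted p reached 0.149. These were the fit without the low-count filter, the replicate block, the 2-group fit, and leaving out DMSO replicate 1 or 2, any CAR or Combination replicate, or JQ1 replicate 1 or 2 (log2 -0.15 to -0.07 over all 19). Exons of the opposite-strand gene LTO1 overlap those of CCND1 over 497 bases. LTO1 rose where CCND1 fell, with 52.7 ± 0.43 CPM in Combination, 40.4 ± 1.26 in JQ1, 30.2 ± 0.35 in CAR and 24.3 ± 0.66 in DMSO (SD, n = 3 each). Whether the authors' counting used strand is not given, so reads in the shared bases cannot be assigned to either gene, and their part in the CCND1 values was not tested.

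CCND3, which partners the same kinases (chromosome 6, 41934933 to 42050357, minus strand), stood at 375, 382 and 378 CPM in Combination, 238, 245 and 258 in JQ1, 194, 197 and 193 in CAR and 151, 156 and 163 in DMSO. The order was the reverse of that of CCND1, again with no overlap. CCND3 rose 2.42-fold in Combination (log2 1.28 ± 0.04), 1.58-fold in JQ1 (log2 0.66 ± 0.04) and 1.24-fold in CAR (log2 0.32 ± 0.04) against DMSO.

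CDK4 was higher with CAR alone and lower with JQ1 alone than in DMSO. CDK4 (chromosome 12, 57747727 to 57756013, minus strand) stood at 116, 116 and 119.9 CPM in Combination, 94.4, 93.7 and 96.5 in JQ1, 207, 202 and 206 in CAR and 150.5, 155 and 173 in DMSO. No group overlapped another, with CAR highest and JQ1 lowest. CDK4 fell 1.68-fold in JQ1 (log2 -0.75 ± 0.05) and 1.36-fold in Combination (log2 -0.44 ± 0.05), and rose 1.29-fold in CAR (log2 0.36 ± 0.04). DMSO replicate 3 was the highest of its group. Without it the changes were log2 -0.68 in JQ1, -0.37 in Combination and 0.43 in CAR. MYC, which encodes a factor known to bind E-boxes, had 157 ± 5.01 CPM in Combination, 126 ± 2.30 in JQ1, 166 ± 2.06 in CAR and 122 ± 0.23 in DMSO (SD, n = 3 each). MYC rose in Combination (log2 0.37) and CAR (log2 0.45), and its value in JQ1 was log2 0.05 (adjusted p = 0.198). A link between MYC and the level of CDK4 was not tested.

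The 3′ end of CDK4 shares 1369 bases of exon with the opposite-strand gene TSPAN31 (chromosome 12, 57738013 to 57750211, plus strand). TSPAN31 had 35.9 ± 1.74 CPM in Combination, 43.0 ± 0.36 in JQ1, 11.9 ± 0.60 in CAR and 13.2 ± 0.50 in DMSO (SD, n = 3 each). It rose 2.71-fold in Combination and 3.25-fold in JQ1 against DMSO, where CDK4 fell. The part that reads of the shared bases had in either value was not tested.

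CDK6 fell in Combination, and its change with each drug alone did not pass the test. CDK6 (chromosome 7, 92604921 to 92836594, minus strand) stood at 74.3, 75.3 and 70.4 CPM in Combination, 134, 136 and 121 in JQ1, 130.4, 131 and 139 in CAR and 126, 133 and 109 in DMSO. The Combination libraries lay below all others, and the other 3 groups overlapped. CDK6 fell 1.67-fold in Combination against DMSO (log2 -0.74 ± 0.06, adjusted p = 1.5e-09). Its value was log2 0.09 in JQ1, with a 95% interval of -0.04 to 0.22 (adjusted p = 0.165), and log2 0.12 in CAR, with an interval of -0.01 to 0.25 (adjusted p = 0.0939). CDK6 has the longest merged exons of the members, 12.26 kb, and DMSO replicate 3, with its length trend, held the lowest DMSO value. Without that library the values were log2 -0.81 in Combination, 0.02 in JQ1 and 0.05 in CAR. Without DMSO replicate 2 CDK6 passed as higher in both JQ1 (log2 0.15, adjusted p = 0.019) and CAR (log2 0.18, adjusted p = 0.0106), and without JQ1 replicate 3 as higher in JQ1 (log2 0.14, adjusted p = 0.0429).

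Counted over the members, 8 of 9 were called in Combination against DMSO (4 higher, 4 lower), 8 of 9 in JQ1 (4 higher, 4 lower) and 8 of 9 in CAR (2 higher, 6 lower). Over all 12645 genes, 85.4% were called in Combination (42.6% higher, 42.8% lower), 83.7% in JQ1 (41.5% higher, 42.2% lower) and 57.3% in CAR (27.3% higher, 30.1% lower). The members' counts in Combination and JQ1 are near this background. The median absolute log2 change of the members was 0.74 in Combination, 0.62 in JQ1 and 0.36 in CAR, against 0.65, 0.60 and 0.22 over all genes tested. The 3 comparisons share their DMSO libraries. Against the single drugs, 9 of 9 members were called in Combination over JQ1 (5 higher, 4 lower), against 51.9% of all genes (26% higher, 25.9% lower), and 9 of 9 in Combination over CAR (5 higher, 4 lower), against 85.4% (42.4% higher, 43% lower).

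**Figure D2:**
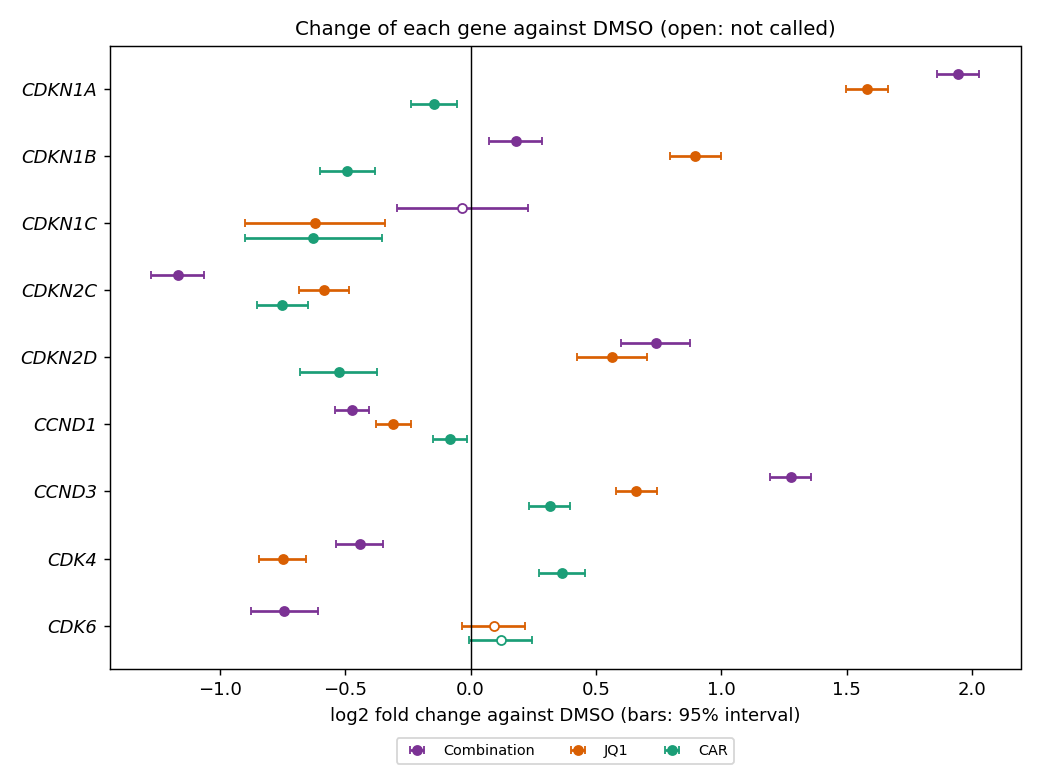
Log2 fold change of each gene in Combination, JQ1 and CAR against DMSO, with 95% intervals from the quasi-likelihood fit; open points were not called. CDKN1A reaches 1.94 in Combination and 1.58 in JQ1 while CDKN2C lies at -1.17 in Combination.

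The comparison of CAR in the presence and in the absence of JQ1 asks whether the drugs add up on the log scale. The test of that difference called 6 of 9 members (4 higher, 2 lower than the sum), against 38.3% of all genes (20.1% higher, 18.2% lower). CDKN1C and CDK6 departed most. With CAR, CDKN1C rose where JQ1 was present (Combination over JQ1, log2 0.59) and fell where it was not (CAR over DMSO, log2 -0.63), a difference of log2 1.21 ± 0.19 (adjusted p = 3.64e-05). The single-drug changes of CDKN1C sum to log2 -1.25, against -0.033 in Combination. CDK6 fell with CAR in the presence of JQ1 (log2 -0.83) and stood at 0.12 without it, a difference of log2 -0.95 ± 0.09 (adjusted p = 1.36e-07). Its single-drug changes sum to log2 0.21, against -0.74 in Combination. Of all genes tested, 3.27% had a larger absolute difference than CDKN1C and 5.86% than CDK6.

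For the mRNAs of p21 and p19, as for CDKN1C, the change with CAR had opposite signs with and without JQ1. CDKN1A rose in Combination over JQ1 (1.29-fold, log2 0.36 ± 0.04) and fell in CAR over DMSO, a difference of log2 0.51 ± 0.06 (adjusted p = 6.68e-07). CDKN2D was called higher in Combination over JQ1 (log2 0.17 ± 0.06, adjusted p = 0.0259) and fell in CAR over DMSO, a difference of log2 0.70 ± 0.10 (adjusted p = 9.4e-06). The CDKN2D call over JQ1 was lost with total count scaling (log2 0.09), with DESeq2 (adjusted p = 0.0634), and without JQ1 replicate 1 or 2 or Combination replicate 1 or 3 (log2 0.15, 0.17, 0.15 and 0.18). The difference of CCND3 was log2 0.30 ± 0.05 (adjusted p = 0.000198) and that of CDKN1B log2 -0.22 ± 0.07 (adjusted p = 0.0176). The CDKN1B call was lost without DMSO replicate 1 (log2 -0.20) or CAR replicate 1 (-0.18).

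For the other 3 members the departure from the sum did not pass the test. The difference was log2 0.17 for CDKN2C (95% interval 0.02 to 0.32, adjusted p = 0.073), -0.08 for CCND1 (interval -0.18 to 0.01, adjusted p = 0.168) and -0.06 for CDK4 (interval -0.19 to 0.08, adjusted p = 0.518). CDK4 passed without DMSO replicate 3 (log2 -0.12, adjusted p = 0.0325), and CDKN2C without JQ1 replicate 1 (log2 0.21, adjusted p = 0.0355). With CAR, CDK4 rose in both settings (log2 0.31 ± 0.05 in Combination over JQ1, 0.36 ± 0.04 in CAR over DMSO) and CDKN2C fell in both (log2 -0.58 ± 0.05 and -0.75 ± 0.05).

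**Figure D3:**
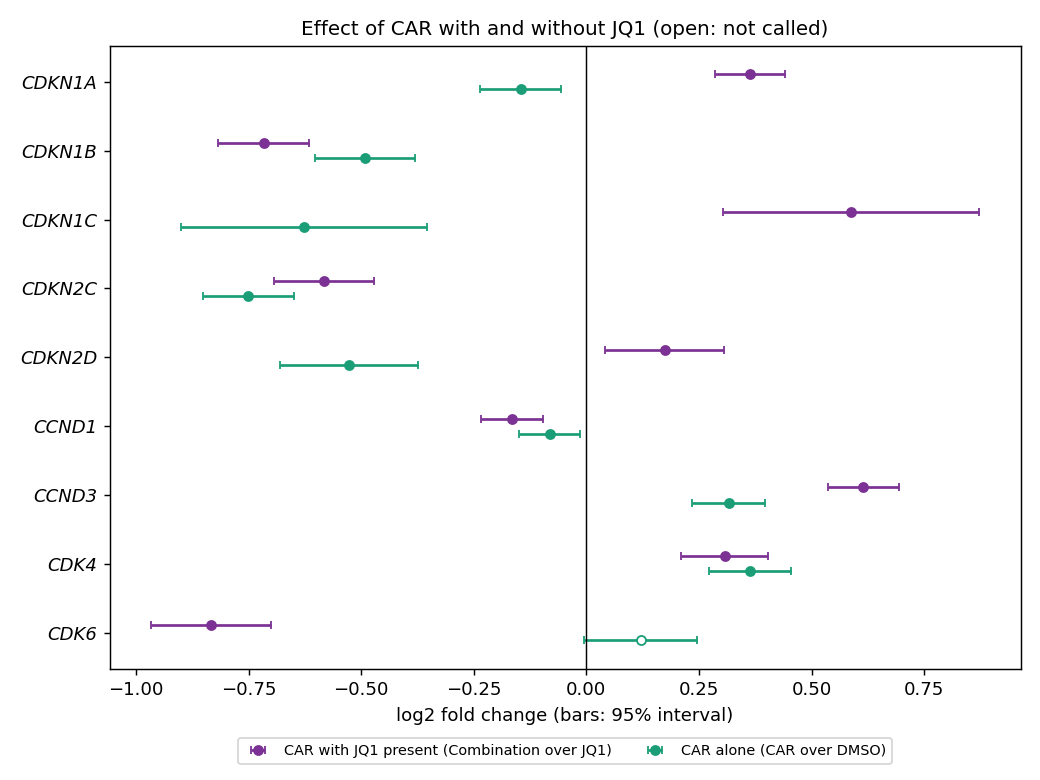
Log2 fold change that accompanied CAR when JQ1 was present (Combination over JQ1) and when it was not (CAR over DMSO), with 95% intervals; open points were not called. CDKN1A, CDKN1C and CDKN2D lie on opposite sides of 0 in the 2 settings, and CDK6 is at -0.83 with JQ1 and 0.12 without.

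Per kilobase of merged exon, CCND1 had the highest level of the members in every group, 81.5 ± 0.60 CPM per kb in Combination, 91.4 ± 1.89 in JQ1, 107 ± 0.80 in CAR and 113 ± 2.46 in DMSO (SD, n = 3 each). CDKN1C had the lowest, 2.25 ± 0.23 CPM per kb in Combination, 1.49 ± 0.02 in JQ1, 1.49 ± 0.24 in CAR and 2.30 ± 0.20 in DMSO (SD, n = 3 each). CDKN1A, at 70.4 ± 1.95 CPM per kb in Combination and 54.8 ± 0.47 in JQ1, ranked above CCND3 and CDK4 in those groups, at 65.2 ± 0.62 and 37.0 ± 0.69 in Combination and 42.6 ± 1.74 and 29.9 ± 0.47 in JQ1. In CAR and DMSO it was below them, at 16.6 ± 0.44 and 18.3 ± 0.48, where CCND3 had 33.5 ± 0.38 and 26.9 ± 1.03 and CDK4 had 64.8 ± 0.76 and 50.3 ± 3.77. The rank of CDKN1A above CCND3 depends on the merged exon lengths, 3.05 kb and 5.80 kb. Without division by length CDKN1A was below CCND3, at 215 against 378 CPM in Combination and 167 against 247 in JQ1.

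Ratios of 2 genes within a library do not depend on how libraries are scaled. Each was tested against DMSO with a two-sided exact permutation test, for which 3 libraries against 3 cannot give a p below 0.1. The family held 15 such tests, and the lowest Benjamini-Hochberg adjusted value was 0.125. Per length, CCND1 exceeded CCND3 by a factor of 1.24 to 1.26 in Combination, 2.09 to 2.24 in JQ1, 3.13 to 3.22 in CAR and 3.94 to 4.39 in DMSO. The log2 ratio differed from DMSO by -1.75 in Combination, -0.97 in JQ1 and -0.40 in CAR, without overlap and with an exact p = 0.1 each. CDKN2C to CDKN2D was 0.516 to 0.537 per length in Combination and 0.81 to 0.976 in JQ1. It was 1.56 to 1.81 in CAR and 1.86 to 2.03 in DMSO. The lower level of CDKN2C in Combination and JQ1 depends on division by the merged exon lengths. By counts the ratio was 1.14 to 1.19 in Combination and 1.79 to 2.15 in JQ1. In CAR it was 3.45 to 4 and in DMSO 4.11 to 4.49, so CDKN2C had more counts in every library. The log2 ratio differed from DMSO by -1.91, -1.15 and -0.22 in Combination, JQ1 and CAR, with an exact p = 0.1 each.

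CDKN1A exceeded CDKN1B per length by a factor of 3.70 to 3.99 in Combination, 1.81 to 1.86 in JQ1, 1.40 to 1.55 in CAR and 1.11 to 1.16 in DMSO. The differences from DMSO were log2 1.76, 0.68 and 0.35 in Combination, JQ1 and CAR, with an exact p = 0.1 each. CDKN1A reached 0.846 to 0.883 of the level of CCND1 per length in Combination and 0.594 to 0.609 in JQ1, against 0.151 to 0.158 in CAR and 0.156 to 0.168 in DMSO. By counts the ratio was 0.534 to 0.557 in Combination, 0.375 to 0.385 in JQ1, 0.0950 to 0.0995 in CAR and 0.0985 to 0.106 in DMSO. In Combination and JQ1 this ratio was higher than in DMSO by log2 2.42 and 1.89 (exact p = 0.1 each). In CAR it differed by log2 -0.07, and the libraries overlapped (exact p = 0.3). CDK4 to CDK6 was 5.98 to 6.59 per length in Combination, 2.66 to 3.09 in JQ1, 5.74 to 6.14 in CAR and 4.50 to 6.13 in DMSO. By counts it was 1.54 to 1.70 in Combination, 0.687 to 0.797 in JQ1, 1.48 to 1.59 in CAR and 1.16 to 1.58 in DMSO. The higher level of CDK4 in JQ1 depends on division by the merged exon lengths, 3.17 kb and 12.26 kb. By counts CDK4 was below CDK6 in every JQ1 library. The log2 ratio differed from DMSO by -0.84 in JQ1, without overlap (exact p = 0.1), and in Combination and CAR the libraries overlapped those of DMSO (log2 0.30 and 0.24, exact p = 0.3 each). The highest DMSO value was that of replicate 3, without which these differences were log2 0.44 and 0.38, and that of JQ1 was -0.70.

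**Figure D4:**
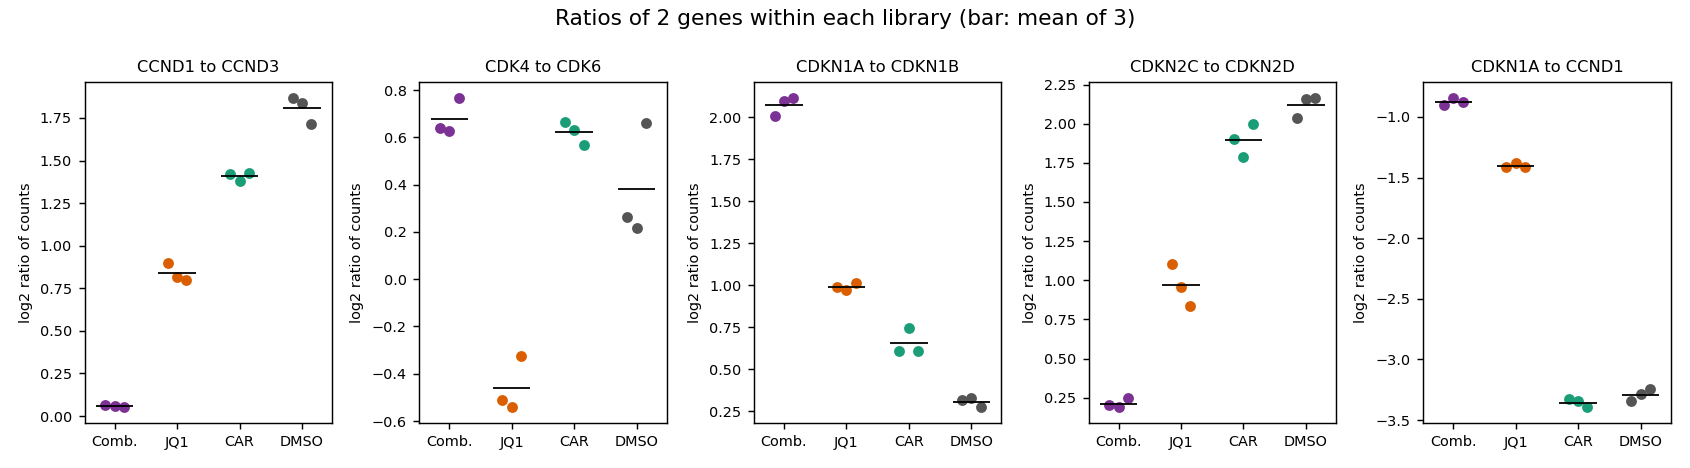
Log2 ratio of the counts of 2 genes in each library, with 0.5 added to each count; points are libraries and the bar is the mean of 3. CCND1 to CCND3 is lowest in Combination and highest in DMSO, and CDK4 to CDK6 is low in JQ1 alone.

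Other genes of the G1 pathway fell in both groups with JQ1. Of 14 listed partners and members of the retinoblastoma axis 12 were tested, and in both Combination and JQ1 against DMSO 12 fell and 0 rose, with a median log2 change of -1.93 and -1.73 (0.00 and -0.01 over all genes). Of all genes, 42.8% fell in Combination and 42.2% in JQ1. In CAR 4 rose and 5 fell (median -0.06, against -0.02 over all genes), where 27.3% of all genes rose and 30.1% fell. E2F2, an activator of S phase genes, was at or near the floor with JQ1, with 0.234 ± 0.23 CPM in Combination, 0.295 ± 0.18 in JQ1, 10.0 ± 1.05 in CAR and 7.52 ± 0.82 in DMSO (SD, n = 3 each). Cyclin A2 (CCNA2) had 11.1 ± 2.19 CPM in Combination, 14.6 ± 1.88 in JQ1, 217 ± 9.05 in CAR and 195 ± 6.15 in DMSO (SD, n = 3 each), and fell in Combination (log2 -4.13) and in JQ1 (log2 -3.73). The third D cyclin, CCND2, was low, at 1.54 ± 0.48 CPM in Combination, 1.98 ± 0.14 in JQ1, 3.04 ± 0.16 in CAR and 3.95 ± 0.26 in DMSO (SD, n = 3 each).

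**Figure D5:**
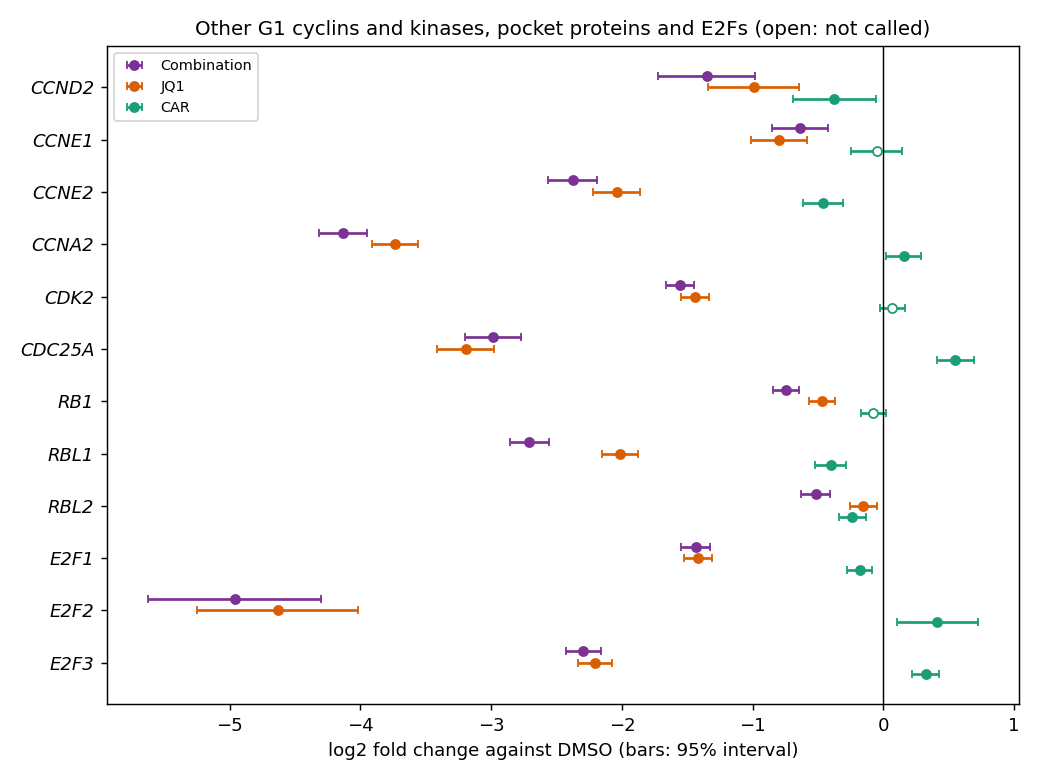
Log2 fold change against DMSO of the 12 tested G1 partners and retinoblastoma axis genes in Combination, JQ1 and CAR, with 95% intervals; open points were not called. All 12 lie below 0 in Combination and JQ1.

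Genes that degrade CDK inhibitors and D cyclins were called in each direction about as often as all genes in Combination and JQ1. Of 14 genes tested, 7 rose and 6 fell in Combination (median log2 0.17, against 0.00 over all genes), 7 rose and 6 fell in JQ1 (0.19, against -0.01) and 5 rose and 3 fell in CAR (0.08, against -0.02). Of all genes, 42.6% rose and 42.8% fell in Combination, 41.5% and 42.2% in JQ1, and 27.3% and 30.1% in CAR. DTL, the substrate receptor that sends p21 to degradation in S phase, had 11.8 ± 0.92 CPM in Combination, 14.6 ± 0.92 in JQ1, 97.1 ± 4.38 in CAR and 94.2 ± 3.62 in DMSO (SD, n = 3 each). It fell in Combination (log2 -3.00) and in JQ1 (log2 -2.69). CKS1B, the cofactor for p27 degradation, fell in Combination (log2 -2.48) and in JQ1 (log2 -2.58). FBXO31, a receptor for cyclin D1, and SKP1, a shared subunit, each rose by log2 1.09 in Combination.

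Of 17 listed transcription factors that act on CDK inhibitor or D cyclin genes, 8 rose and 8 fell in Combination (median log2 0.01, against 0.00 over all genes), 6 rose and 9 fell in JQ1 (-0.12, against -0.01) and 5 rose and 8 fell in CAR (-0.07, against -0.02). The Combination and JQ1 counts are near the shares of all genes that rose and fell (42.6% and 42.8% in Combination, 41.5% and 42.2% in JQ1); in CAR those shares were 27.3% and 30.1%. FOXO1, an activator of CDKN1B, had 31.7 ± 0.51 CPM in Combination, 32.5 ± 1.39 in JQ1, 11.3 ± 0.21 in CAR and 12.9 ± 1.15 in DMSO (SD, n = 3 each), and rose by log2 1.30 in Combination. FOXO3 rose by log2 0.79 in Combination. FOSL1, an AP-1 subunit, fell in Combination (log2 -2.54) and in JQ1 (log2 -3.39). KLF6, an activator of CDKN1A, fell in Combination (log2 -1.67) and in JQ1 (log2 -1.22).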

How the data were processed

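The authors deposited 1 table of whole-number read counts per gene symbol for each of 12 libraries, not normalized. Per the submitters' processing notes the tools were Trimmomatic, HISAT2 and HTSeq and the build hg38. The versions, the annotation and the strand setting are not stated in those notes. Per the labels' protocols the kit was a stranded mRNA kit. Groups and replicate numbers came from sample titles, with the control named after its treatment, DMSO.

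The tests used edgeR 4.0.16 under R 4.3.3. filterByExpr (minimum count 10, minimum total 15) set which genes were kept, TMM factors ran from 0.921 to 1.08, and a robust quasi-likelihood model with 1 coefficient per group was fitted to all 12 libraries (8 residual degrees of freedom). A call is an adjusted p under 0.05 (Benjamini-Hochberg, over all 12645 genes). Errors of log2 changes are the change divided by the square root of F. Alternatives were total count, upper-quartile and DESeq2 scaling, DESeq2 1.42.0, no low-count filter, 2-group fits, the replicate number as a block, and leaving out each library. The pipeline was tested on simulated data. The 95% intervals come from the same fit and include the spread between libraries; the floor of 3 counts covers counting error only. Merged exon lengths and positions come from GENCODE v29 on GRCh38, with a length for 97.1% of symbols.

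The members and lists were chosen with earlier results of these data known. Named were all members, up to 2 genes with the largest and 2 with the smallest log2 change called in Combination against DMSO from each pathway list, overlapping genes, MYC and CDKN2B, and per member the 2 genes of at least 5 CPM with the nearest profile. Some genes that this rule takes in are not reported here. CCND2 was named after its values were seen.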

Additional observations from a re-analysis of the deposited data

Results flagged for a closer look

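For 6 members the effect of CAR differed between cells with and without JQ1 by the interaction term of the fit. The difference, on the log2 scale, was 0.51 for CDKN1A, -0.22 for CDKN1B, 1.21 for CDKN1C, 0.70 for CDKN2D, 0.30 for CCND3 and -0.95 for CDK6. Groups of 3 libraries are too small for a test of single outlying libraries.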

How the results depend on the processing

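Over 19 alternatives, 986 of 1017 values of single members kept their direction and their side of the threshold, 22 lost a call, 5 gained one and 4 changed sign. The counts of members called stayed within 1.5 times of those reported in each alternative run, and no ratio changed direction. The 4 sign changes were those of CDK6 in JQ1 against DMSO with total count scaling (log2 -0.027), of CDKN1B in Combination against DMSO with total count scaling (-0.028), and of CDKN1C in Combination against DMSO without DMSO replicate 3 (0.027) or without Combination replicate 3 (0.028; -0.12 without Combination replicate 1). Total count scaling moved the median of all genes to log2 -0.21 in Combination and -0.13 in JQ1 against DMSO. It also moved the split of calls over all genes to 4216 higher and 6501 lower in Combination against DMSO (5386 and 5415 with TMM), to 2636 and 4738 in CAR against DMSO (3449 and 3801) and to 2229 and 4554 in Combination over JQ1 (3292 and 3275). Same-numbered libraries showed no shared deviation over all genes (correlations -0.04 to 0.06 over 18 pairs). Whether the numbers pair the libraries is not settled by this, since a pairing need not leave a shared deviation. With the replicate number as a block 7 members were called in CAR against DMSO in place of 8, the call lost being that of CCND1 (log2 -0.08, adjusted p = 0.0556), and 8, 8, 9, 9 and 6 in JQ1 against DMSO, Combination against DMSO, Combination over JQ1, Combination over CAR and the interaction. The causes of these shifts were not tested. Depth limits CDKN1C most, with 63 to 125 counts per library.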

Other observations

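Among genes that activate or fold the G1 kinases, 6 were tested. In Combination against DMSO 3 rose and 2 fell (median log2 0.16, against 0.00 over all genes), in JQ1 3 rose and 1 fell (0.19, against -0.01), and in CAR 5 rose and 0 fell (0.31, against -0.02). Of all genes, 42.6% rose and 42.8% fell in Combination, 41.5% and 42.2% in JQ1, and 27.3% and 30.1% in CAR, so the Combination count is near this background. HSP90AA1, the stress-inducible chaperone of CDK4, had 3117 ± 60.1 CPM in Combination, 2872 ± 43.1 in JQ1, 2786 ± 63.9 in CAR and 1982 ± 81.4 in DMSO (SD, n = 3 each). CDC37, the kinase-specific partner of that chaperone, rose by log2 0.47 in Combination. The constitutive HSP90AB1 and MNAT1, a subunit of the CDK-activating kinase, fell in Combination (log2 -0.19 and -0.16). All 12 tested S phase genes driven by E2F fell in Combination (median log2 -2.84, against 0.00 over all genes) and in JQ1 (-2.57, against -0.01), where 42.8% and 42.2% of all genes fell. In CAR 4 rose and 2 fell (0.11, against -0.02), where 27.3% of all genes rose and 30.1% fell. RRM2, a subunit of ribonucleotide reductase, and MKI67, a proliferation marker, fell in Combination (log2 -4.17 and -4.02).

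Profiles over the 12 libraries were compared as centred log2 CPM across 9974 genes, by the root mean square difference. As descriptions, the nearest genes were MAPRE2 and RHBDD2 for CDKN1A (0.0608 and 0.0728), TCF7L2 for CDKN1B (0.0732), BFSP1 and ANKRD9 for CDKN1C (0.163 and 0.178), ETNK2 and CALM2 for CDKN2C (0.0709 and 0.076) and GIGYF1 and RHBDF1 for CDKN2D (0.0601 and 0.0638). They were SLC9A7 and KIF5B for CCND1 (0.0436 and 0.0439), MAFK and MFSD12 for CCND3 (0.0598 and 0.0716), HNRNPAB and CCT6A for CDK4 (0.0471 and 0.0475) and ADGRL2 and MALT1 for CDK6 (0.102 and 0.118). MAPRE2 followed CDKN1A at 216 ± 5.72 CPM in Combination, 177 ± 4.32 in JQ1, 52.4 ± 1.60 in CAR and 60.7 ± 1.82 in DMSO (SD, n = 3 each).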
